A study of Arabidopsis thaliana with 8 samples.

Results

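The SnRK2 family of Arabidopsis thaliana was described in root tips: the 10 genes SnRK2.1 to SnRK2.10, chosen by their locus identifiers among the 33557 genes listed. All 10 were present and tested in each of the 3 comparisons, and none was listed at 0 in any group. The groups were wild type of the Columbia background treated with 100 µM abscisic acid (ABA) for 3 h, untreated wild type, bin2-1, and bzr1-D/bin2-1. Roots of 7-day-old seedlings were cut about 1 cm from the tip, and 2 libraries were made per group, the second titled a repeat. The labels do not say whether the repeats came from separately grown plants, nor whether the mutant roots received ABA. Both mutant groups share the bin2-1 allele, and the double mutant carries bzr1-D on top of it, so bin2-1 serves as its reference; untreated wild type is the reference of the other 2 comparisons. The level of a gene is given as FPKM, fragments counted per kilobase of transcript and scaled to library size, with 1 value per group as the authors deposited it. Values of single libraries were not analysed here. The levels therefore carry no replicate error, and sequencing depth is unknown. The tests are those of the authors, and a member is said to have risen or fallen where their q-value, a p-value adjusted for multiple testing, was under 0.05.

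SnRK2 enzymes are plant serine/threonine kinases of osmotic stress and ABA signalling. In the core ABA pathway, hormone-bound PYR/PYL receptors inhibit clade A PP2C phosphatases, which otherwise keep the kinases inactive. The freed kinases phosphorylate bZIP transcription factors such as ABI5 and the ABFs, ion channels and NADPH oxidases. The family is divided by sequence into subclass III (SnRK2.2, SnRK2.3 and SnRK2.6), strongly activated by ABA, subclass II (SnRK2.7 and SnRK2.8), weakly activated by it, and subclass I (SnRK2.1, SnRK2.4, SnRK2.5, SnRK2.9 and SnRK2.10), whose activity ABA does not raise. BIN2 is a kinase of the GSK3 type that dampens brassinosteroid responses, and bin2-1 makes it hyperactive. It is known to phosphorylate SnRK2.2 and SnRK2.3. BZR1 is a transcription factor held down by BIN2, and bzr1-D encodes a stabilised form of it. These alleles act on proteins, and the values here are transcript levels.

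In untreated wild-type root tips the subclass III and subclass I transcripts were the abundant ones. SnRK2.2 (AT3G50500), which acts with SnRK2.3 in ABA control of germination and root growth, stood at 72.4 FPKM in the table with ABA-treated roots. SnRK2.3 (AT5G66880) followed at 54.2 FPKM and SnRK2.6 (AT4G33950) at 53.3 FPKM in that group. SnRK2.6, also called OST1 (OPEN STOMATA 1), is best known for closing stomata, and a root tip has no stomata. Of 7 guard cell markers, FAMA, MUTE and SPCH were listed at 0 in both groups of that table, and all 7 summed to 0.916 FPKM in ABA-treated and 0.848 FPKM in untreated wild type. The subclass I transcripts in untreated wild type ran from 47.9 FPKM for SnRK2.1 (AT5G08590) and 38.5 FPKM for SnRK2.4 (AT1G10940) through 31.2 FPKM for SnRK2.5 (AT5G63650) and 27.8 FPKM for SnRK2.10 (AT1G60940) to 16.8 FPKM for SnRK2.9 (AT2G23030). The subclass II transcripts were the lowest, SnRK2.8 (AT1G78290) at 4.30 FPKM and SnRK2.7 (AT4G40010) at 1.36 FPKM. Subclass III made 51.7% of the summed SnRK2 level, subclass I 46.6% and subclass II 1.63%. Without values per library it cannot be said which neighbours in this order, such as SnRK2.3 and SnRK2.6, differ beyond their spread. The same untreated group appears in the table with bin2-1 at values 1 near-constant factor away: the ratio of the ABA table to the bin2-1 table was 0.938 for each of the 10 members, so levels are compared within a table.

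**Figure D1:**
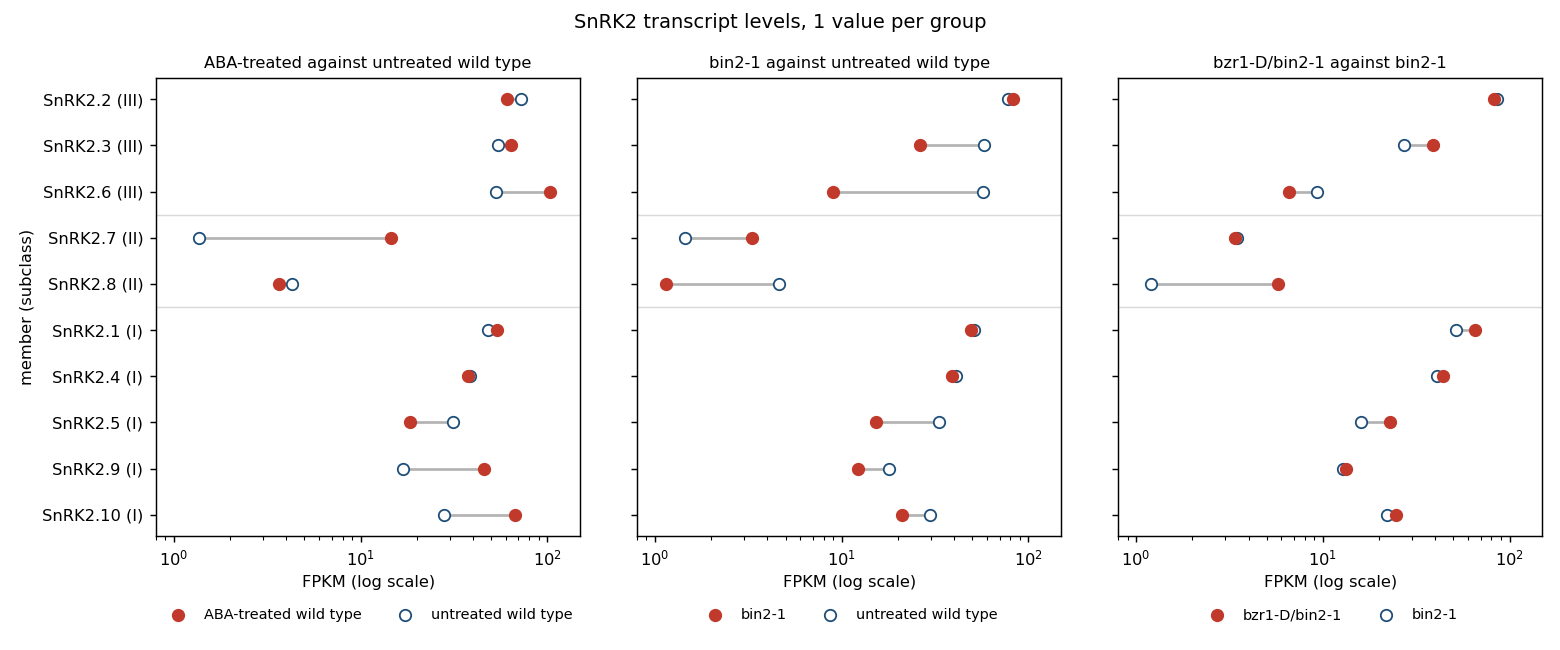
Level of each SnRK2 member in FPKM (log axis), 1 panel per comparison; filled red points are ABA-treated wild type, bin2-1 and bzr1-D/bin2-1, and open points the group each is set against. The longest gaps are those of SnRK2.7 with ABA (14.5 against 1.36 FPKM) and of SnRK2.6 in bin2-1 (8.92 against 56.8 FPKM); each point is 1 group value without an error.

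The hormone comparison asks which SnRK2 transcripts ABA changes in roots. With ABA, 4 of 10 members rose and 1 fell, where 15.1% of all 20126 tested genes rose, 9.51% fell and 24.6% changed in either direction. The median log2 fold change was 0.19 over the 10 members and 0.01 over all tested genes. The members that rose came from all 3 subclasses. SnRK2.6 stood at 103 FPKM in ABA-treated and 53.3 FPKM in untreated wild type, 1.93-fold higher per the authors' deposited table (q = 0.000385). This made SnRK2.6 the most abundant SnRK2 transcript of ABA-treated roots, against place 3 in untreated roots. The other members of subclass III did not pass: SnRK2.3 had 63.6 FPKM in ABA-treated and 54.2 FPKM in untreated wild type, and SnRK2.2 had 60.8 FPKM in ABA-treated and 72.4 FPKM in untreated wild type (q = 0.297 and 0.245 per the authors' deposited table). SnRK2.6 thus formed 45.3% of the subclass III sum with ABA and 29.6% without it.

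The largest fold was that of SnRK2.7, a subclass II kinase, with 14.5 FPKM in ABA-treated and 1.36 FPKM in untreated wild type. In the authors' deposited table this was 10.7-fold higher (log2 fold change 3.42, q = 0.000385). With 1 FPKM added to both groups, the fold came to 6.58, because the untreated level is low. SnRK2.8, the other subclass II kinase, implicated in growth and drought responses, had 3.66 FPKM with ABA and 4.30 FPKM without it (q = 0.847 per the authors' deposited table). The order of these 2 kinases was therefore reversed between groups, SnRK2.7 being 79.9% of the subclass II sum with ABA and 24.0% without.

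Subclass I went both ways. SnRK2.10, a kinase of osmotic and salt stress, had 66.7 FPKM with ABA and 27.8 FPKM without (2.401-fold higher, q = 0.000385 per the authors' deposited table). SnRK2.9 had 45.8 FPKM with ABA and 16.8 FPKM without (2.73-fold higher, q = 0.000385 per the authors' deposited table). SnRK2.9 is the family member reported as inactive under osmotic stress in cells that express it. SnRK2.5 was the member that fell, to 18.3 FPKM with ABA, against 31.2 FPKM without (log2 fold change -0.77, q = 0.000385 per the authors' deposited table). SnRK2.4 and SnRK2.1 did not pass, with 37.5 and 53.4 FPKM with ABA and 38.5 and 47.9 FPKM without (q = 0.915 and 0.529 per the authors' deposited table). SnRK2.4 is the closest relative of SnRK2.10 by coding sequence, at 86.8% identity, and the longest stretch identical between them was 59 bases. Reads that lie within such a stretch could be assigned to either, and how many do was not examined. SnRK2.1 and SnRK2.5 are likewise 86.8% identical, with 32 bases as the longest shared run. Summed over the family, the level was 467 FPKM in ABA-treated and 348 FPKM in untreated wild type. Among the 8 lists of cell type markers, the phloem list had the highest ratio of summed levels, 82.4 FPKM with ABA and 51.0 FPKM without. In it SUC2 rose and APL fell, and the part of the list in the SnRK2 changes was not tested. In bulk root tips, fewer cells of a type and less RNA per cell cannot be told apart.

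The bases upstream of the 4 genes that ABA raised are shown. These genes were chosen by that call alone, and in bin2-1 SnRK2.7 rose while SnRK2.6, SnRK2.9 and SnRK2.10 fell. Each run holds the 300 bases before the annotated gene start, 5′ to 3′ on the gene's strand, from the TAIR10.1 genome and RefSeq annotation. Capitals mark ACGTG, the core of the ABA response element bound by ABF and ABI5 proteins, on either strand, and CACGTG, the G-box, which contains that core.
SnRK2.6 (chr4:16271445-16271744, plus strand): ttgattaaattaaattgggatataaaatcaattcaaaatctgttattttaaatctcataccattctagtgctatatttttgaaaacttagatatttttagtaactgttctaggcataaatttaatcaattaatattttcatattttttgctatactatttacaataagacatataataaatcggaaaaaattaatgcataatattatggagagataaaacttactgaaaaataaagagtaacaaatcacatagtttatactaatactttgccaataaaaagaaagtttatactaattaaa
SnRK2.7 (chr4:18551184-18551483, minus strand): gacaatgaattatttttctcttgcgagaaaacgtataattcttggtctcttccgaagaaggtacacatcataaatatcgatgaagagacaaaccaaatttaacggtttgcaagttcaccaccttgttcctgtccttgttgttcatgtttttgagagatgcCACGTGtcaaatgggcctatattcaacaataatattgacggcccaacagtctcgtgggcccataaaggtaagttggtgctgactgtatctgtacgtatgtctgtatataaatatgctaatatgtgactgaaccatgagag
SnRK2.9 (chr2:9806732-9807031, minus strand): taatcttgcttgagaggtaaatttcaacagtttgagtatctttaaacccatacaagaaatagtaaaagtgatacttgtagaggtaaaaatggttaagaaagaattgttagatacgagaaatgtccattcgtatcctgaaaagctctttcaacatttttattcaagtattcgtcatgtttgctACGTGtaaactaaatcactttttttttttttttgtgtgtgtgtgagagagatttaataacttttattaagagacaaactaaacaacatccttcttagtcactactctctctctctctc
SnRK2.10 (chr1:22442222-22442521, minus strand): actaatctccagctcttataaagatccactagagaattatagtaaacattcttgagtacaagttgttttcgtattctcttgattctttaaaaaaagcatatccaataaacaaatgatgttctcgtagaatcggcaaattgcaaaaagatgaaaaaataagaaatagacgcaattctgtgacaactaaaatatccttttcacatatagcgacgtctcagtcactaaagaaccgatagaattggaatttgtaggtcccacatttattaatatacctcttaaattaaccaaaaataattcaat
The core was found before SnRK2.7, as a G-box at bases -140 to -135 from the gene start, and before SnRK2.9, at -118 to -114. It was not found in the windows of SnRK2.6 and SnRK2.10. The window of SnRK2.7 overlaps another annotated gene, AT4G40011, and the G-box may lie inside it. The window of SnRK2.1 likewise overlaps AT5G08580. Over the family, 3 of 10 windows held the core, the third being that of SnRK2.3, whose transcript did not pass with ABA. The SnRK2.3 window held a G-box at -195 to -190 and a further core at -292 to -288. Of 27437 windows of the same length before protein-coding genes, 25.6% held the core and 7.09% the G-box. The brassinosteroid response elements CGTGTG and CGTGCG, which BZR1 binds, were searched on both strands too. None of the 10 windows held either, while 7.64% of all windows held at least 1 of them. That count covers CGTGTG and CGTGCG alone, so it does not show that a window, such as those with a G-box, lacks a BZR1 site. A match is a description of letters and no evidence of binding, and its absence concerns these windows and the motifs searched only.

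In bin2-1 roots most of the family was lower than in untreated wild type. This comparison asks what the hyperactive BIN2 kinase changes. Of 10 members, 6 fell and 1 rose. Over all 20404 tested genes 25.6% fell, 25.4% rose and 51.0% changed in either direction, so a call in itself is common in this comparison. The median log2 fold change was -0.52 over the members and -0.01 over all tested genes. The summed SnRK2 level was 259 FPKM in bin2-1 and 371 FPKM in wild type.

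SnRK2.6 had the largest fall. Its level was 8.92 FPKM in bin2-1 and 56.8 FPKM in wild type, a log2 fold change of -2.67 per the authors' deposited table (q = 0.000188). Of all tested genes with a finite fold, 2.18% had a lower log2 fold change. SnRK2.3 fell as well, to 26.1 FPKM in bin2-1, against 57.7 FPKM in wild type (log2 fold change -1.15, q = 0.000188 per the authors' deposited table). SnRK2.2 had 82.4 FPKM in bin2-1 and 77.2 FPKM in wild type and did not pass (q = 0.605 per the authors' deposited table). In bin2-1 SnRK2.2 made 70.2% of the subclass III sum, SnRK2.3 22.2% and SnRK2.6 7.60%. In wild type the shares were 40.3% for SnRK2.2, 30.1% for SnRK2.3 and 29.6% for SnRK2.6. The subclass III sum itself was 117 FPKM in bin2-1 and 192 FPKM in wild type.

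**Figure D2:**
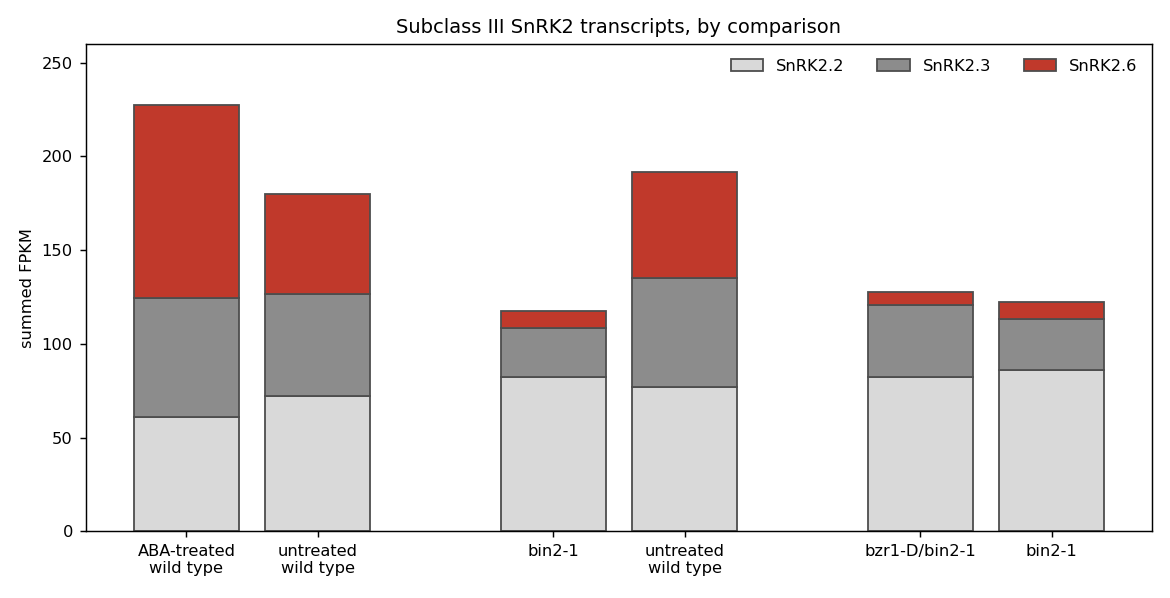
Stacked FPKM of the 3 subclass III kinases in the 2 groups of each comparison, SnRK2.2 at the bottom, SnRK2.3 in the middle and SnRK2.6 on top. The SnRK2.6 segment is 103 FPKM in ABA-treated wild type and 8.92 FPKM in bin2-1, against 53.3 and 56.8 FPKM in the untreated wild type of the same table, while SnRK2.2 stays between 60.8 and 85.9 FPKM in all bars.

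The subclass II kinases moved in opposite directions in bin2-1. SnRK2.7 rose to 3.32 FPKM in bin2-1, against 1.45 FPKM in wild type (2.295-fold, q = 0.00036 per the authors' deposited table). SnRK2.8 fell to 1.15 FPKM in bin2-1, against 4.59 FPKM in wild type (log2 fold change -1.996 per the authors' deposited table), at a q of 0.04998 that lies just inside the threshold. With 1 FPKM added to both groups the level of SnRK2.8 was 2.599-fold lower, against 3.99-fold on the deposited values. Subclass I had 3 falls. SnRK2.5 stood at 15.3 FPKM in bin2-1 and 33.3 FPKM in wild type (log2 fold change -1.12, q = 0.000188 per the authors' deposited table). SnRK2.9 had 12.3 FPKM in bin2-1 and 17.9 FPKM in wild type, and SnRK2.10 had 21.1 FPKM in bin2-1 and 29.6 FPKM in wild type (q = 0.00367 and 0.00341 per the authors' deposited table). Both falls were below 1.5-fold, at log2 fold changes of -0.54 and -0.49 on the authors' values. SnRK2.1 and SnRK2.4 did not pass, at 49.5 and 39.1 FPKM in bin2-1 and 51.1 and 41.0 FPKM in wild type (q = 0.809 and 0.710 per the authors' deposited table). SnRK2.1 and SnRK2.5, with SnRK2.4 and SnRK2.10, are the kinases known to phosphorylate VARICOSE, an mRNA decapping factor. The paired kinases of close sequence therefore carried different calls, since SnRK2.5 fell and SnRK2.1 did not pass, and SnRK2.10 fell and SnRK2.4 did not pass, although the difference within a pair was not tested.

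Cell type markers were compared between bin2-1 and wild type too, in a comparison where 51.0% of all tested genes were called. The 4 endodermis markers summed to 185 FPKM in bin2-1 and 285 FPKM in wild type, and 3 of the 4 fell. The 4 xylem markers summed to 106 FPKM in bin2-1 and 158 FPKM in wild type, with 2 of the 4 lower. The 4 root hair markers all rose, with sums of 231 FPKM in bin2-1 and 106 FPKM in wild type. Of the 4 root meristem markers PLT2 and WOX5 rose and 0 fell, and their sum was 28.2 FPKM in bin2-1 and 14.5 FPKM in wild type. Of the 4 root cap markers 2 rose and 2 fell. SnRK2.6 is known to be expressed in vascular tissue as well as in guard cells. Its level was 6.36-fold lower in bin2-1, while the xylem sum was 0.672 times and the phloem sum 0.861 times that of wild type. Of the 3 phloem markers APL fell, CALS7 rose and SUC2 did not pass. The part of these markers in the SnRK2 changes was not tested. The 7 guard cell markers summed to 1.05 FPKM in bin2-1 and 0.903 FPKM in wild type, with the same 3 listed at 0 in both groups.

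**Figure D3:**
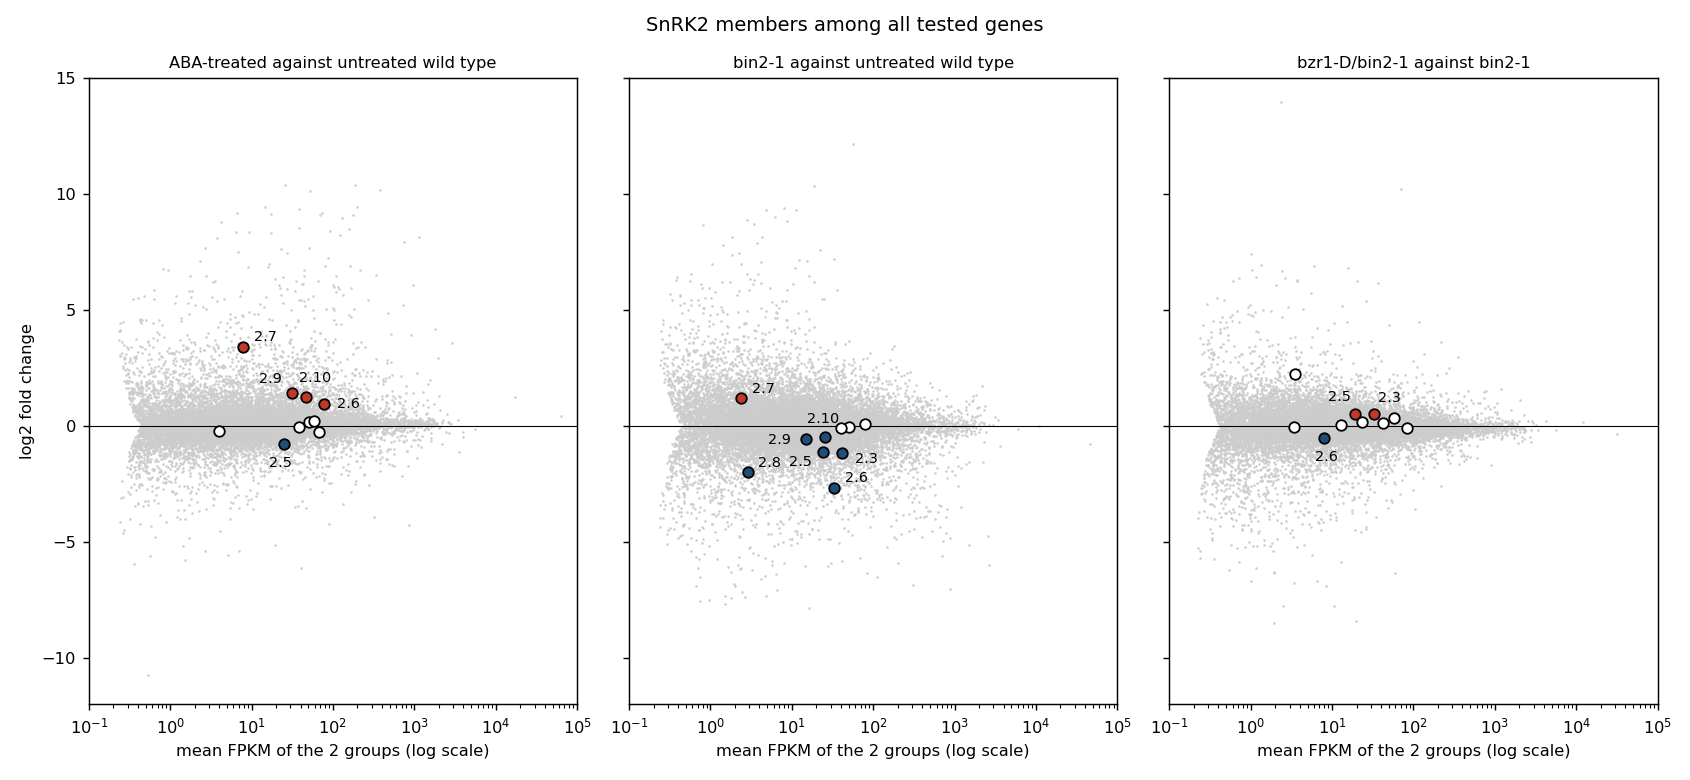
Log2 fold change against the mean FPKM of the 2 groups (log axis) for every tested gene with a value above 0 in both groups (grey) and the 10 members: red higher, blue lower and white not past a q of 0.05, with the numbers of the called members printed. In bin2-1 (middle panel) SnRK2.6 at -2.67 and SnRK2.8 at -1.996 are the lowest members, and SnRK2.7 with ABA (left panel) lies at 3.42.

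With bzr1-D added to bin2-1, SnRK2.6 was lower still, while SnRK2.3 and SnRK2.5 were higher. The comparison asks which effects of bin2-1 a stabilised BZR1 changes. Its bin2-1 libraries are those set against wild type above. An error in their value would push both comparisons, in opposite directions. Of 10 members, 2 rose and 1 fell, where 11.9% of 20410 tested genes rose, 12.8% fell and 24.8% changed in either direction, so the share of members called lay near that of all genes. The median log2 fold change was 0.14 over the members and -0.01 over all tested genes. SnRK2.6 fell further, with 6.55 FPKM in bzr1-D/bin2-1 and 9.30 FPKM in bin2-1 (log2 fold change -0.51, q = 0.0207 per the authors' deposited table). SnRK2.3 rose to 38.8 FPKM in bzr1-D/bin2-1, against 27.2 FPKM in bin2-1 (1.43-fold, q = 0.0035 per the authors' deposited table). SnRK2.5 rose to 22.8 FPKM in bzr1-D/bin2-1, against 15.9 FPKM in bin2-1 (1.43-fold, q = 0.00438 per the authors' deposited table).

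The other 7 members did not pass, 2 of them narrowly. SnRK2.8 had 5.76 FPKM in bzr1-D/bin2-1 and 1.198 FPKM in bin2-1. That is a 4.80-fold higher value with q = 0.0579 per the authors' deposited table, or 3.07-fold with 1 FPKM added to both groups. SnRK2.1 had 65.3 FPKM in bzr1-D/bin2-1 and 51.6 FPKM in bin2-1 (q = 0.0526 per the authors' deposited table). SnRK2.2 stood at 82.1 FPKM in bzr1-D/bin2-1 and 85.9 FPKM in bin2-1, and SnRK2.4 at 44.2 FPKM in bzr1-D/bin2-1 and 40.8 FPKM in bin2-1. SnRK2.7, which was higher in bin2-1 than in wild type, had 3.39 FPKM in bzr1-D/bin2-1 and 3.46 FPKM in bin2-1 (q = 0.951 per the authors' deposited table). SnRK2.9 had 13.2 FPKM in bzr1-D/bin2-1 and 12.8 FPKM in bin2-1, and SnRK2.10 had 24.6 FPKM in bzr1-D/bin2-1 and 22.0 FPKM in bin2-1. The q of SnRK2.2, SnRK2.4, SnRK2.9 and SnRK2.10 lay between 0.467 and 0.876 per the authors' deposited table. Of the 4 xylem markers XCP1, XCP2 and IRX3 rose and VND7 did not pass, and their sum was 188 FPKM in bzr1-D/bin2-1 and 111 FPKM in bin2-1. The 4 endodermis markers went both ways: CASP1 and CASP2 rose, MYB36 fell and SCR did not pass. Their sum, most of it from CASP1 and CASP2, was 292 FPKM in bzr1-D/bin2-1 and 193 FPKM in bin2-1. Of the 4 root cap markers BRN1 and BRN2 rose and 0 fell, with sums of 57.2 FPKM in bzr1-D/bin2-1 and 36.2 FPKM in bin2-1. Of the 4 root hair markers RHD6 and LRX1 fell and 0 rose, with sums of 201 FPKM in bzr1-D/bin2-1 and 241 FPKM in bin2-1. Among the root meristem markers PLT1 rose and WOX5 fell. The part of these markers in the rises of SnRK2.3 and SnRK2.5 was not tested.

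**Figure D4:**
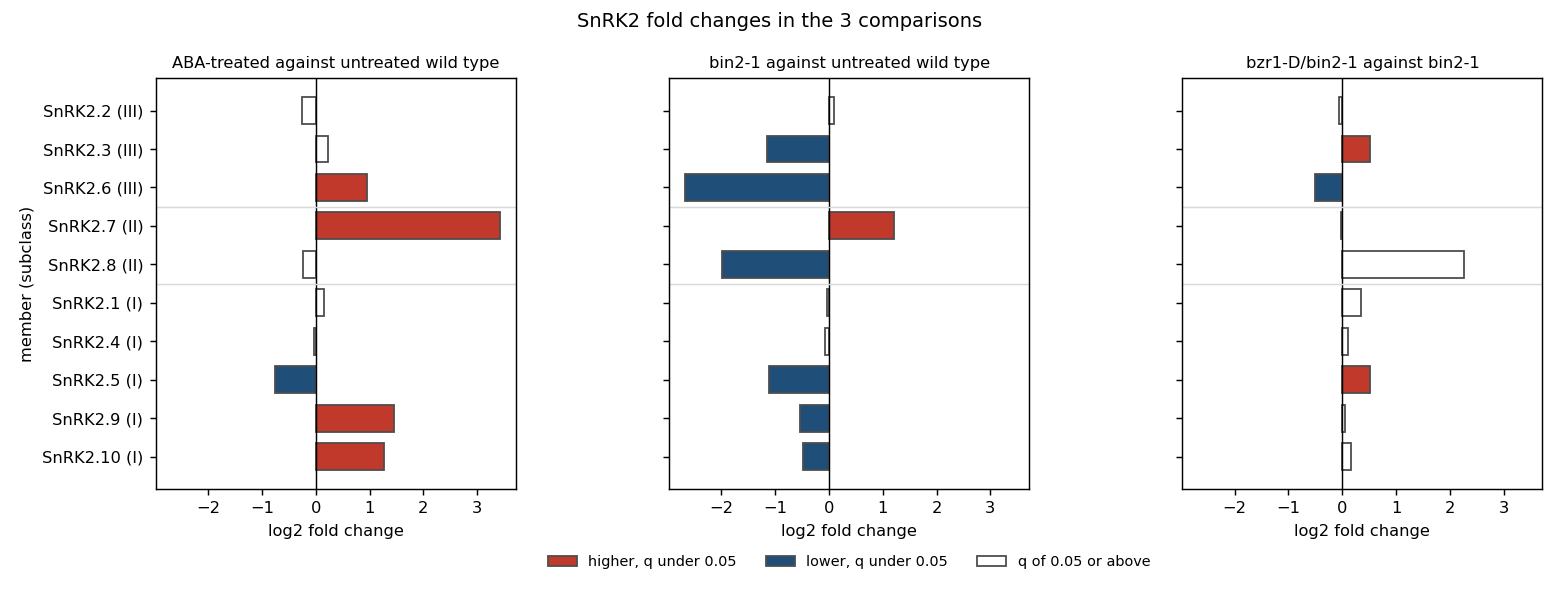
Log2 fold change of each SnRK2 member in the 3 comparisons, bars filled red (higher) or blue (lower) where the authors' q was under 0.05 and white otherwise; members are ordered by subclass. SnRK2.6 is at 0.95 with ABA, -2.67 in bin2-1 and -0.51 with bzr1-D added, SnRK2.7 at 3.42, 1.199 and -0.03, and the white bar at 2.26 is SnRK2.8.

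The double mutant was not compared with wild type in any 1 table, so its distance was taken as the sum of the log2 fold changes of the bin2-1 and bzr1-D comparisons, which share the bin2-1 group; these sums carry no test. SnRK2.6 was at -3.18, 11.1% of the wild-type level. SnRK2.3 and SnRK2.5 were at -0.63 and -0.60, 64.5% and 65.8% of wild type. In bin2-1 alone they were at -1.15 and -1.12. SnRK2.7 was at 1.17, SnRK2.9 at -0.49 and SnRK2.10 at -0.33. SnRK2.8, SnRK2.1, SnRK2.4 and SnRK2.2 lay between 0.03 and 0.29. SnRK2.6 is thus the member farthest from wild type in both mutant groups, and with ABA it moved the other way.

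Steps of the pathway upstream of the kinases were also measured. The counts of each list stand beside those of all tested genes, of which 15.1% rose and 9.51% fell with ABA, 25.4% rose and 25.6% fell in bin2-1, and 11.9% rose and 12.8% fell with bzr1-D added. Of the 14 PYR/PYL receptors, 10 were tested in each comparison. With ABA 2 rose and 7 fell, in bin2-1 1 rose and 8 fell, and in bzr1-D/bin2-1 against bin2-1 3 rose and 1 fell. The receptor medians were -0.92, -1.28 and 0.02 on the log2 scale in the ABA, bin2-1 and bzr1-D comparisons, where the medians of all tested genes were 0.01, -0.01 and -0.01. PYL7 was 5.01-fold higher with ABA per the authors' deposited table, and PYL6 had 1.14 FPKM with ABA and 80.0 FPKM without. PYL1 was the receptor that rose in bin2-1, with 26.6 FPKM in bin2-1 and 16.5 FPKM in wild type. PYL3 had 0.287 FPKM in bin2-1 and 2.09 FPKM in wild type, and 3.36 FPKM in bzr1-D/bin2-1 and 0.299 FPKM in bin2-1. The bin2-1 libraries are the same in both, so the fall and the rise of PYL3 are not independent. Of the 9 clade A PP2Cs, which dephosphorylate SnRK2s, 7 rose and 0 fell with ABA. HAI2 and HAI3 had log2 fold changes of 9.45 and 9.17 at q = 0.194 per the authors' deposited table. These folds rest on low untreated values. HAI2 had 28.9 FPKM with ABA and 0.0412 FPKM without, and HAI3 had 34.6 FPKM with ABA and 0.0603 FPKM without. HAI1 had 311 FPKM with ABA and 0.853 FPKM without. The summed PP2C level was 1063 FPKM with ABA and 51.1 FPKM without, beside SnRK2 sums of 467 FPKM with ABA and 348 FPKM without. In bin2-1, where 51.0% of all tested genes were called, 4 of 7 tested PP2Cs rose and 1 fell, with ABI1 at 52.5 FPKM in bin2-1 and 16.6 FPKM in wild type. With bzr1-D added 2 of 7 rose and 0 fell. PP2CA was 1.53-fold higher per the authors' deposited table, and HAI3 had 0.721 FPKM in bzr1-D/bin2-1 and was listed at 0 in bin2-1. The PP2C medians (log2) were 4.69 with ABA, 0.47 in bin2-1 and, over the 6 with a finite fold, 0.04 with bzr1-D added.

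Raf-like kinases of groups B2, B3 and B4 include activators of SnRK2s. Of the 19 listed, 17 were tested with ABA, where 3 rose and 3 fell, beside 24.6% of all tested genes called. AT4G23050, annotated as a PAS domain kinase, had 85.6 FPKM with ABA and 11.5 FPKM without, and AT1G04700 had 1.64 FPKM with ABA and 2.47 FPKM without. In bin2-1 1 of 18 tested members rose and 7 fell, beside 51.0% of all tested genes called, so calls were no more frequent than over all genes. Among them AT1G16270 stood at a log2 fold change of 0.56 and AT3G24715 at -1.50 per the authors' deposited table. With bzr1-D added 1 of 18 rose and 1 fell, beside 24.8% of all tested genes called, AT4G24480 at a log2 fold change of 0.41 and AT1G73660 at -0.50 per the authors' deposited table. The median log2 fold changes of the list were -0.12, -0.11 and 0.11 in the ABA, bin2-1 and bzr1-D comparisons.

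Of 12 known SnRK2 substrates 10 were tested with ABA, of which 8 rose and 1 fell, beside 15.1% higher and 9.51% lower over all tested genes. FBH3 (AKS1), a bHLH factor that SnRK2.6 phosphorylates in guard cells, had 131 FPKM with ABA and 8.19 FPKM without. RBOHD, an NADPH oxidase, was the substrate that fell, with 56.3 FPKM with ABA and 247 FPKM without. In bin2-1 RBOHD had 32.0 FPKM, against 264 FPKM in wild type (log2 fold change -3.04, q = 0.000188 per the authors' deposited table). SLAH3, an anion channel, was the substrate with the largest rise in bin2-1, at 16.9 FPKM in bin2-1 and 4.86 FPKM in wild type, and 3 of 10 tested substrates rose and 4 fell, beside 51.0% of all tested genes called. ABF2 led the 4 rises with bzr1-D, with 18.3 FPKM in bzr1-D/bin2-1 and 9.20 FPKM in bin2-1, and ABI5 led the 2 falls, with 1.24 FPKM in bzr1-D/bin2-1 and 3.35 FPKM in bin2-1, again of 10 tested and beside 24.8% of all tested genes called. The substrate medians (log2) were 1.34, -0.14 and 0.22 in the ABA, bin2-1 and bzr1-D comparisons. SLAC1 and KAT1, guard cell channels, reached at most 0.229 FPKM in any group and were not tested.

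**Figure D5:**
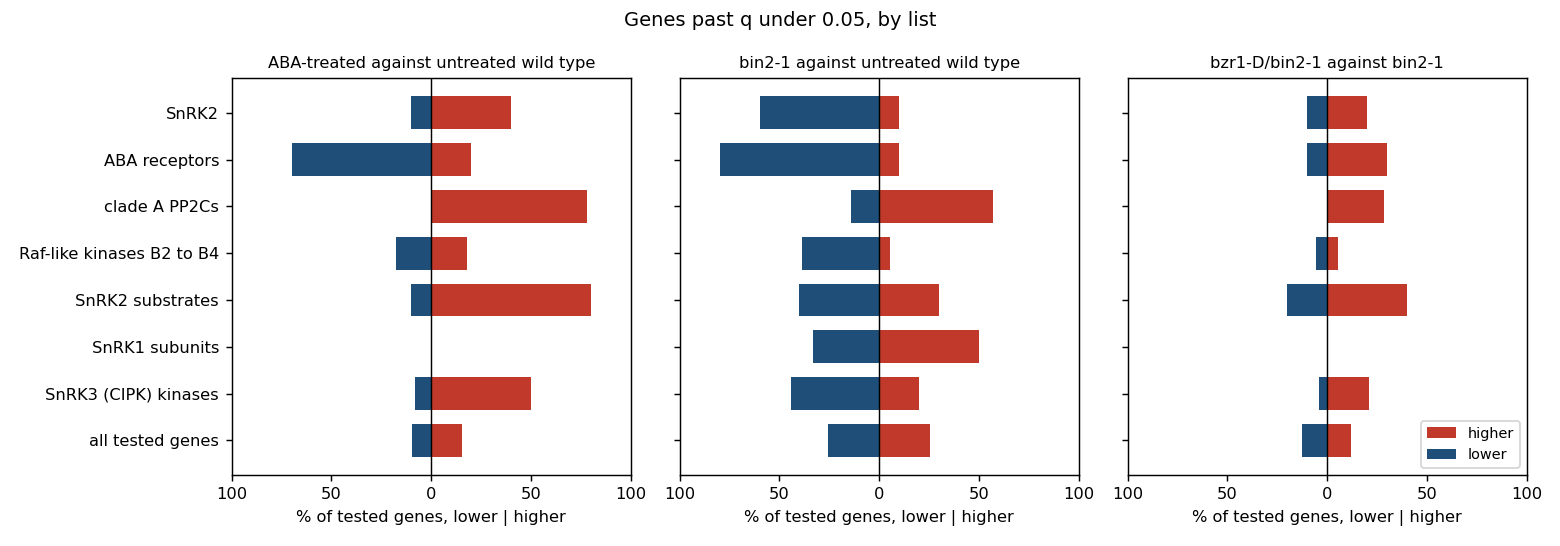
Percentage of the tested genes of each list that were higher (red, right of 0) or lower (blue, left of 0) at the authors' q under 0.05, 1 panel per comparison, with all tested genes in the bottom row. The SnRK2 row shows 4 higher and 1 lower of 10 with ABA, 1 and 6 in bin2-1, and 2 and 1 with bzr1-D added; the receptor row lies mostly to the left with ABA and in bin2-1.

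Genes with the pattern most like that of the subclass III kinases were found by the Euclidean distance over the 3 log2 fold changes, among 12157 other genes with at least 5 FPKM in every group. Within 0.5 of SnRK2.6 lay 4 genes. They were AT2G29500, annotated as a small heat shock protein (0.15), AT3G10020 (0.18), XTH24, a wall enzyme (0.44), and AT1G67920 (0.49). AT2G29500 moved by 0.87, -2.56 and -0.58 (log2) in the ABA, bin2-1 and bzr1-D comparisons, beside 0.95, -2.67 and -0.51 for SnRK2.6. For SnRK2.3, 278 genes lay within that distance, and the nearest were AT2G38800, annotated as calmodulin-binding-like (0.05), RSH2 (0.08), AT5G46910 and AT1G52540. For SnRK2.2, whose 3 values lay near 0, 3910 genes lay within it, and the nearest were ZIP3, VCS, AT3G27550 and AT4G31480. The 5 FPKM minimum removed genes falling as far as SnRK2.6 from lower levels. The counts therefore do not rank how rare each pattern is. The 3 comparisons share groups, so the distance describes likeness in these libraries.

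The members lie on chromosomes 1 to 5 of TAIR10.1. Coding lengths ran from 1020 bases for SnRK2.9 to 1116 bases for SnRK2.4, and 9 of the 10 coding sequences are in 9 or 10 exons. That of SnRK2.8 is in 6. SnRK2.6 spans chr4:16271745-16274825 and overlaps no other annotated gene, nor do SnRK2.2, SnRK2.7, SnRK2.9 and SnRK2.10. SnRK2.1, SnRK2.3, SnRK2.5 and SnRK2.8 overlap genes on the opposite strand and SnRK2.4 overlaps RECQ4A on its own strand, and whether counting used strand is not stated, so reads of these neighbours may be included in their values. SnRK2.2 and SnRK2.3 are 84.4% identical in coding sequence, with 45 bases as the longest shared run, whereas the closest relative of SnRK2.6 was SnRK2.3 at 74.3% with 17 bases.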

How the data were processed

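TruSeq mRNA libraries of excised root tips were sequenced on a HiSeq2000, and reads were processed with TopHat and Cufflinks on TAIR10, per the submitters' processing notes; their versions and settings, and the test used, are not stated in these sources. The authors deposited 3 tables with 1 FPKM value per group, the ratio of the 2 values as a fold, and per gene a p-value with its q-value. The unit was read as FPKM because Cufflinks is named. Log2 fold changes were computed from the deposited ratio without a pseudocount. Genes with p below 1 count as tested. The smallest p is 5e-05, so the smallest q (0.000385, 0.000188 and 0.000451 in the ABA, bin2-1 and bzr1-D tables) do not rank genes that share them. Group values go down to 4.86e-06 FPKM, so whole reads could not be recovered. No fit per library was possible. The members, lists and rules were chosen with earlier results of these data known. Named partner genes are, per list and comparison, the largest rise and fall past q under 0.05 not listed at 0 in either group and reaching 1 FPKM in the higher one. HAI2, HAI3, SLAC1 and KAT1 were named after their values were seen, as were the markers. The p-values speak for these libraries only, since the labels do not call the repeats separate cultures. RefSeq's TAIR10.1 annotation held all 10 members and 32810 of the 33557 identifiers; sequences and coordinates come from it alone, and the deposited tables hold no coordinates. Python 3.11.15, pandas 2.3.3 and Biopython 1.88 were used. The Benjamini-Hochberg adjustment was tested on simulated data.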

Additional observations from a re-analysis of the deposited data

How the results depend on the processing

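The counts of members past the threshold were recomputed at a q under 0.01, with a minimum of 2-fold, with a filter at 1 FPKM and with a recomputed adjustment. The filter and the recomputed adjustment left the counts of all 3 comparisons as they were. At q under 0.01, the falls with bzr1-D added went to 0, SnRK2.6 being the member lost, and those in bin2-1 to 5. With at least 2-fold, the falls with ABA were 0 and the rises and falls with bzr1-D added were 0 and 0, while 3 members rose with ABA and 4 fell in bin2-1; the minimum itself takes away the smaller changes. In the bzr1-D comparison SnRK2.3, SnRK2.5 and SnRK2.6, and also SnRK2.1 and SnRK2.8, had unadjusted p under 0.05. Centring on the median turned the sign of no member's log2 fold change. Adding 0.1 or 1 FPKM to both groups cannot turn a sign, so it bears on the size of a fold only. With 1 FPKM added, the rise of SnRK2.7 with ABA went from 10.7-fold to 6.58-fold. No paired analysis was possible because the tables hold 1 value per group, and no library could be left out for the same reason. The depth behind low members such as SnRK2.7 and SnRK2.8 is unknown.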

Other observations

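The other branches of the SnRK superfamily were measured in the same libraries. SnRK1 kinases are regulators of energy metabolism with a catalytic subunit and regulatory beta and gamma subunits. Of 6 subunits tested, 0 rose and 0 fell with ABA or with bzr1-D added at the authors' q under 0.05. AKINBETA1 with ABA and KIN11 with bzr1-D added, 1 subunit in each comparison, had an unadjusted p under 0.05. Over all tested genes 24.6% were called with ABA and 24.8% with bzr1-D added, so few calls among 6 genes say little. In bin2-1 3 rose and 2 fell, beside 51.0% of all tested genes called. AKINBETA1, a beta subunit, had 42.1 FPKM in bin2-1 and 160 FPKM in wild type (log2 fold change -1.93, q = 0.000188 per the authors' deposited table). AT4G16360, annotated as a beta-2 subunit, had 32.2 FPKM in bin2-1 and 21.6 FPKM in wild type.

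SnRK3 kinases, also called CIPKs, act with calcium-binding CBL proteins in ion transport. With ABA 12 of 24 tested members rose and 2 fell, beside 15.1% higher and 9.51% lower over all tested genes. SR1 (CIPK14) had 158 FPKM with ABA and 20.2 FPKM without, and CIPK25 had 85.0 FPKM with ABA and 142 FPKM without. In bin2-1 5 of 25 rose and 11 fell, beside 25.4% higher and 25.6% lower over all tested genes, with SR1 at 79.9 FPKM in bin2-1 and 21.5 FPKM in wild type. CIPK17 had 0.0888 FPKM in bin2-1 and 4.46 FPKM in wild type, and 7.34 FPKM in bzr1-D/bin2-1 and 0.0925 FPKM in bin2-1 (q = 0.0231 and 0.0336 per the authors' deposited table). The low bin2-1 value of CIPK17 comes from the same libraries in both comparisons, so its fall and its rise are not independent. With bzr1-D added 5 of 24 rose and 1 fell, a share of calls near the 24.8% of all tested genes, the fall being SIP1 (CIPK10), with 11.0 FPKM in bzr1-D/bin2-1 and 16.1 FPKM in bin2-1.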
